A study of Rattus norvegicus with 6 samples.

Results

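Prostaglandin synthesis and reception were followed through 10 genes: the phospholipase gene Pla2g4a, the cyclooxygenase genes Ptgs1 and Ptgs2, the synthase genes Ptges, Ptges2 and Ptgis, the degrading enzyme gene Hpgd, the receptor genes Ptger2 and Ptger4, and Ptgfrn. They were chosen by symbol, which found 8 of the 10 among 30560 gene rows. No row carried the symbol Ptges or Ptgis. For each of these, 1 row was found through the RefSeq protein accession that the authors' annotation gives it, and both rows are described apart from the 8. The Ptgis row is also described as prostaglandin I2 synthase in the deposited annotation, whereas the Ptges row rests on the accession and has an unusually long deposited length of 9699 bases. RNA came from wild-type rat mesenchymal stem cells, the progenitors of connective tissue that give rise to bone, cartilage and fat. All cells of both groups received 200 nM doxorubicin, which damages DNA and is used to induce senescence, for 24 hours and were then kept in fresh medium for 6 days. During those days 1 group received vehicle (Dox, 3 libraries) and the other 100 µg/ml of a preparation that the labels call SMNV without expanding the name (SMNV, 3 libraries). Cells without doxorubicin were not analysed here, so every difference is between doxorubicin-treated cultures with and without the preparation. Nothing in the labels says that replicates were separate cultures or animals, and p-values therefore measure the spread between these libraries, which may be technical.

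Prostaglandins are short-lived lipid signals made from arachidonic acid. Cytosolic phospholipase A2 releases the fatty acid from membranes, cyclooxygenases turn it into prostaglandin H2, and terminal synthases convert that into prostaglandin E2, prostacyclin and other products. Secreted prostaglandin E2 acts on neighbouring cells through the EP receptors, of which EP2 and EP4 raise cyclic AMP, until it is taken up and oxidised. In mesenchymal stromal cells prostaglandin E2 is known as a mediator of their effects on immune cells, and cyclooxygenase-2 is often counted among the secretory features of senescent cells.

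The libraries held 18640909 to 21506967 estimated counts. CPM below are counts relative to the library total after TMM scaling, which corrects for library composition, and they compare a gene between libraries. TPM are the length-scaled values that the authors deposited, and they are used to set genes beside each other. Changes were tested with edgeR's quasi-likelihood test, with Benjamini-Hochberg adjustment over all 12614 tested genes and a threshold of 0.05. Log2 fold changes are SMNV relative to Dox, so that a negative value is a lower level in SMNV. Of all tested genes 60.4% passed, 30.5% higher and 29.9% lower, so a call alone does not set a gene apart in these data. All 12 mesenchymal stromal markers were above 1 CPM in some library, but Nt5e and Dcn reached only 2.34 and 2.94 CPM. Macrophage and haematopoietic markers summed to 11.3 to 13.9 CPM over 12 genes in Dox and 12.4 to 14.1 CPM in SMNV. Ptprc, Itgam, Adgre1, Cd34 and Tyrobp were at 0 in every library. Csf1r, Cd14, Laptm5 and Fcer1g exceeded 1 CPM in some library, at up to 3.79, 5.39, 4.55 and 3.31 CPM. Csf1r was lower and Laptm5 higher in SMNV (edgeR adjusted p = 0.0042 and 0.026), and Cd14 and Fcer1g did not pass. All 7 mast cell and neutrophil markers were at 0. Endothelial markers summed to 1.42 to 2.97 CPM in Dox and 1.31 to 2.50 CPM in SMNV. Of these, Cdh5, Kdr and Emcn were at 0, and only Tek exceeded 1 CPM, at up to 2.44 CPM. Epithelial markers summed to 0.683 to 1.16 CPM in Dox and 1.03 to 1.32 CPM in SMNV, and only Krt8 exceeded 1 CPM. Summed mesenchymal markers were at 40770 to 47230 CPM in Dox and 71600 to 86670 CPM in SMNV, but the 12 genes did not move together: 4 rose, 4 fell and 4 did not pass, with a median log2 fold change of 0.06. Most of the sum was collagen, named with the next genes after the values were seen: Col1a1 rose from 19550 to 41420 CPM and Col1a2 from 16520 to 33520 CPM, whereas Cd44 fell from 377 to 178 CPM, and Itgb1, Pdgfra and Lum fell too. Smooth muscle markers summed to 3101 to 3564 CPM in Dox and 3600 to 3699 CPM in SMNV, with 3 of 8 higher, 1 lower and 4 not passing. Smtn, which rose from 98.5 to 340.5 CPM, and Tagln and Lmod1 were higher and Des lower, again named after their values were seen. The part of these shifts in the results below was not tested.

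Both cyclooxygenase genes fell in SMNV, by unlike amounts, and no other member passed the test. Ptgs2 was lower by 2.23-fold and Ptgs1 by 1.62-fold. Of the 8 rows found by symbol, 7 passed the filter on low counts, 2 fell, 0 rose and 5 did not pass the test, against 29.9% of all tested genes lower and 30.5% higher. At an unadjusted p under 0.05, 1 member was higher, Ptger2, and 2 were lower. Other tools gave the same 2 falls, while the number of members higher was 0 with DESeq2 and 2 with limma voom. For 4 of the 7 tested members every library of a group lay above every library of the other, as it did for 66.9% of all tested genes. Ptger2 and Ptgfrn lay higher in SMNV in that sense (33.4% of all tested genes) and Ptgs1 and Ptgs2 lower (33.4%).

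**Figure D1:**
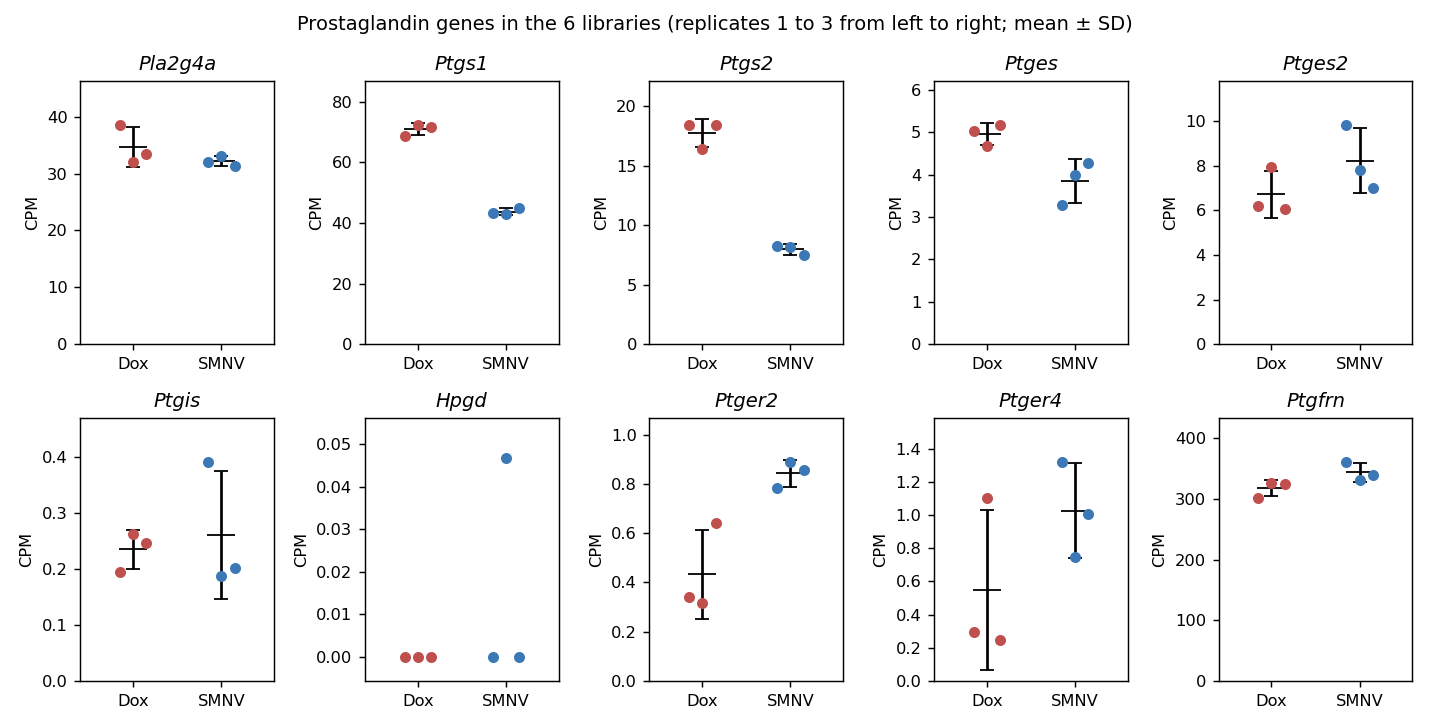
CPM of the 10 genes in each library (y axis, from 0 except in the Hpgd panel, which starts slightly below 0; points are libraries, horizontal marks and bars are mean ± SD of 3 libraries, not drawn for Hpgd). Ptgs1 and Ptgs2 separate the groups widely, at 68.8 to 72.4 against 42.8 to 45.02 CPM and at 16.4 to 18.4 against 7.46 to 8.27 CPM, while Ptger4 in Dox 2 stands among the SMNV libraries.

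Ptgs1 encodes cyclooxygenase-1, the form that many tissues make at a steady level. Its row held 68.8, 72.4 and 71.8 CPM in Dox 1, 2 and 3 and 43.4, 42.8 and 45.02 CPM in SMNV 1, 2 and 3. Every SMNV library lay below every Dox library, and the libraries of a group were close to each other. The mean was 71.0 ± 1.93 CPM in Dox and 43.8 ± 1.13 in SMNV (SD, n = 3), which is -0.70 ± 0.07 (SE) on the log2 scale with an edgeR adjusted p of 7e-07. The row rested on 887 to 1457 counts per library.

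Ptgs2 encodes cyclooxygenase-2, the inducible form that rises in many cells after cytokines, growth factors or stress. It stood at 18.4, 16.4 and 18.4 CPM in the Dox libraries and at 8.27, 8.16 and 7.46 CPM in the SMNV libraries. Again the groups were far apart. The mean went from 17.7 ± 1.15 to 7.96 ± 0.438 CPM (SD, n = 3), which is -1.16 ± 0.11 (SE) on the log2 scale with an edgeR adjusted p of 6.8e-07. Among all tested genes 92.8% had a smaller absolute log2 fold change than Ptgs2, and 79.7% a smaller one than Ptgs1. Both calls held in every alternative, with log2 fold changes of -1.25 to -1.05 for Ptgs2 and -0.81 to -0.67 for Ptgs1.

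The cyclooxygenase pool was mostly Ptgs1 in every library. In TPM, Ptgs1 exceeded Ptgs2 by 6.14, 7.26 and 6.43 times in Dox and by 8.61, 8.64 and 9.92 times in SMNV. The summed TPM of the pair was 56.8, 58.5 and 58.9 in Dox and 32.9, 30.7 and 31.9 in SMNV, a ratio of the group means of 0.548. Ptgs2 made up 14.01%, 12.1% and 13.5% of that sum in the Dox libraries and 10.4%, 10.4% and 9.16% in the SMNV libraries. These shares did not overlap between the groups. Their mean was 13.2 ± 0.976% in Dox and 9.98 ± 0.711% in SMNV (SD, n = 3), a difference of -3.22 percentage points (two-sided exact permutation p = 0.1, the smallest that 3 against 3 allows). By counts the share of Ptgs2 was 21.1% in Dox 1 (95% Clopper-Pearson interval 19.3 to 23.1) and 14.2% in SMNV 3 (12.2 to 16.5), intervals that cover counting error only.

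**Figure D2:**
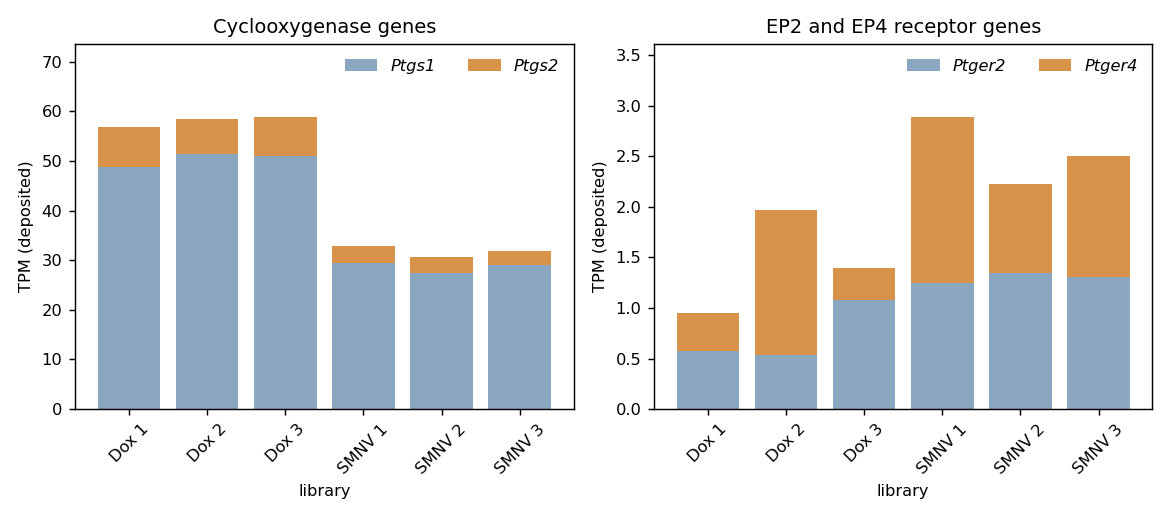
Stacked deposited TPM of the cyclooxygenase genes (left) and of the EP2 and EP4 receptor genes (right) in each of the 6 libraries (y axes in TPM, different scales). The cyclooxygenase sum lies between 56.8 and 58.9 TPM in Dox and between 30.7 and 32.9 TPM in SMNV, and the receptor sum between 0.95 and 1.97 TPM in Dox and between 2.23 and 2.89 TPM in SMNV.

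The starts of the 2 genes that fell are shown because their sequences differ in the elements they hold. Each is 250 bases before and 50 bases after the annotated start in RefSeq, on the build GRCr8, 5′ to 3′ on the plus strand, with matches to the searched motifs in capitals.
Ptgs1, chr3:39981169-39981468: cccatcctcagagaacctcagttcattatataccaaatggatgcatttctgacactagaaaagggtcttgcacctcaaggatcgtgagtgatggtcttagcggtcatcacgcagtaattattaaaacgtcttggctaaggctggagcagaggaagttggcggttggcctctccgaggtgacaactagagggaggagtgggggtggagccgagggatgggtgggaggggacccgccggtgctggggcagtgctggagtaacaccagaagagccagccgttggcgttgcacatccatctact
Ptgs2, chr13:64713813-64714112: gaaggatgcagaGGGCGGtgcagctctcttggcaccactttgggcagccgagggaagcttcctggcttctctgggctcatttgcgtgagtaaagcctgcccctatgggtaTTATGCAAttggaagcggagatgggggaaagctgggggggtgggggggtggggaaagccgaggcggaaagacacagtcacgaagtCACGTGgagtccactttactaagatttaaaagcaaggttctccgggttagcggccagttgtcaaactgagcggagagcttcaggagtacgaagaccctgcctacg
Searched on both strands were the TATA box TATAAA, the GC box GGGCGG, the E-box CACGTG, the CRE core CGTCA and the C/EBP motif TTGCNNAA. The Ptgs2 window held a C/EBP match 140 bases, an E-box 55 bases and a GC box 238 bases before the start. Among 33469 RefSeq windows of the same length, 10.6% held a C/EBP match, 6.42% an E-box and 33.1% a GC box. The Ptgs1 window held none of the 5 motifs, of which the TATA box occurs in 14.2% and the CRE core in 21.2% of all windows. These matches describe letters only, and binding was not measured. RefSeq windows existed for 8 of the 10 genes. The motifs of the Ptgs2 window were not particular to it. The Ptges window held a C/EBP match and a GC box, the Hpgd window an E-box and a GC box, and the Ptgfrn window a GC box.

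Upstream of the cyclooxygenases, Pla2g4a encodes the cytosolic phospholipase A2 that supplies arachidonic acid. It held 38.6, 32.0 and 33.5 CPM in Dox and 32.0, 33.1 and 31.4 CPM in SMNV. Dox 1 was the highest library and the other 5 lay close together. The log2 fold change was -0.11 ± 0.09 (SE; edgeR adjusted p = 0.31), with a 95% interval of -0.30 to 0.08 that does not reach the interval of Ptgs2, -1.40 to -0.92. Without Dox 1 the value was -0.025.

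Downstream, the terminal synthases of prostaglandin E2 did not pass the test. Ptges2, the constitutive membrane-associated synthase, stood at 6.19, 7.94 and 6.06 CPM in Dox and at 9.84, 7.83 and 7.01 CPM in SMNV. The groups overlapped, with Dox 2 above 2 of the SMNV libraries. Its log2 fold change was 0.29 ± 0.16 (SE; edgeR adjusted p = 0.14). It was 0.15 without SMNV 1 (adjusted p = 0.49) and 0.42 without Dox 2 (0.052), and passed in neither case. The row found for Ptges, the inducible microsomal synthase that is often coupled to cyclooxygenase-2, held 5.02, 4.68 and 5.17 CPM in Dox and 3.28, 3.98 and 4.29 CPM in SMNV. The counts of this row had decimals in 3 libraries. Its groups did not overlap, but the log2 fold change of -0.37 ± 0.17 (SE) did not pass (adjusted p = 0.082, edgeR). The interval of that change, -0.74 to 0.0046, holds values as large as the change of Ptgs1. Reads of Ptges2, Ptger2 and Ptger4 could in part belong to an uncharacterised RefSeq gene that overlaps each of them, since whether counting used strand is not stated.

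Transcripts for prostacyclin synthase and for prostaglandin oxidation were near the detection limit. The row found for Ptgis had 14 counts in all Dox libraries together and 16 in all SMNV libraries, at most 0.392 CPM, and was below the filter. Hpgd, which encodes the 15-hydroxyprostaglandin dehydrogenase that starts the inactivation of prostaglandins, had 1 count in SMNV 2 and 0 in the other libraries. A count of 0 allows up to 3 counts, or 0.146 to 0.158 CPM depending on the library without a count. No difference in either gene was detectable at this depth.

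The EP2 and EP4 receptor genes had higher means in SMNV on few counts, and neither passed the test. Ptger2, encoding EP2, had 7, 6 and 13 counts in Dox and 16, 19 and 17 in SMNV. No SMNV library was below a Dox library. The mean was 0.433 ± 0.181 CPM in Dox and 0.844 ± 0.055 in SMNV (SD, n = 3), which is 0.95 ± 0.41 (SE) on the log2 scale with an edgeR adjusted p of 0.057. It passed without Dox 3 (adjusted p = 0.033), with limma voom (0.043) and with limma on log2(TPM + 1) (0.021). Ptger2 did not pass with DESeq2 (adjusted p = 0.133), nor in edgeR without Dox 1 (0.164), without Dox 2 (0.17) or without any SMNV library (0.093 to 0.125). Ptger4, encoding EP4, had 6, 21 and 5 counts in Dox and 27, 16 and 20 in SMNV. Dox 2 stood apart from the other Dox libraries and above SMNV 2. The log2 fold change was 0.92 ± 0.49 (SE; edgeR adjusted p = 0.12), and without Dox 2 it was 1.90 ± 0.52 (adjusted p = 0.0060). Ptger4 also passed with limma voom (adjusted p = 0.0487). It was 0.62 without Dox 1 (edgeR adjusted p = 0.347) and 0.57 without Dox 3 (0.373), and did not pass.

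The balance of the receptors could not be resolved. Ptger4 took 40.0%, 73.1% and 22.9% of the summed receptor TPM in Dox and 56.8%, 39.5% and 47.6% in SMNV. The Dox libraries spanned the whole SMNV range. The difference of 2.62 percentage points (two-sided exact permutation p = 0.9) changed sign when Dox 1, Dox 3 or SMNV 1 was left out. Counting error alone was wide, with Ptger4 at 46.2% of 13 counts in Dox 1 (95% Clopper-Pearson interval 19.2 to 74.9). In bulk RNA, fewer cells with a transcript and less of it per cell cannot be told apart.

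Ptgfrn was by far the most abundant member. It encodes a membrane protein of the immunoglobulin superfamily that was named for inhibiting prostaglandin F2 binding to its receptor and that associates with the tetraspanins CD9 and CD81. It stood at 302, 327 and 325 CPM in Dox and at 362, 331 and 340 CPM in SMNV, without overlap but with SMNV 2 only just above Dox 2. The log2 fold change was 0.11 ± 0.06 (SE; edgeR adjusted p = 0.13), with a 95% interval of -0.021 to 0.25. On the authors' TPM the means were 102 ± 4.31 in Dox and 102 ± 7.94 in SMNV (SD, n = 3), the groups overlapped and the change had the opposite sign, -0.011. On that scale, to which no TMM scaling was applied, the median of all tested genes moved from -0.014 to -0.10 and 39.8% of the calls were higher in place of 50.4%.

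**Figure D3:**
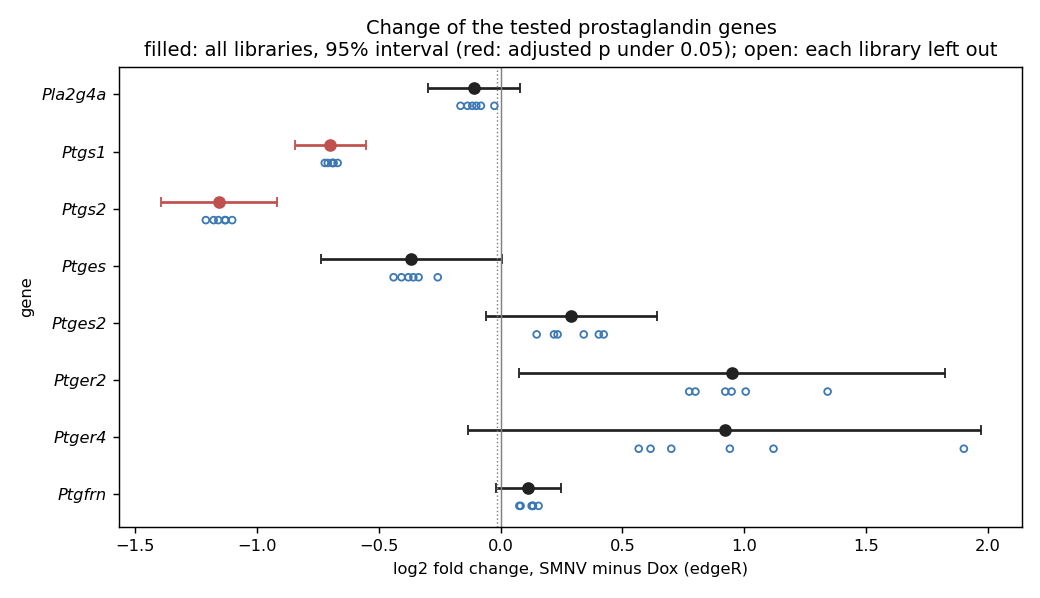
Log2 fold changes, SMNV minus Dox (x axis), of the 8 tested rows (y axis). Filled points are edgeR estimates from all 6 libraries with 95% intervals, red where the adjusted p was under 0.05, open points are the estimates with each library left out, and the dotted line is the median of all tested genes. Ptgs1 and Ptgs2 stay near -0.70 and -1.16 whichever library is left out, whereas Ptger4 moves between 0.57 and 1.90.

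By TPM the members ranked Ptgfrn, Ptgs1, Pla2g4a, Ptges2, Ptgs2, Ptger2, Ptger4, the Ptges row, the Ptgis row and Hpgd, from the mean over all 6 libraries. Ptgfrn, at 96.0 to 111 TPM, was above 89.5% of tested genes in mean TPM, Ptgs1 above 73.0% and Ptgs2 above 23.6%. Ptger2 and Ptger4 were above only 6.48% and 6.26%, and their order was within the spread of the libraries. The place of the Ptges row differed between the groups. In Dox its mean of 0.93 TPM was above those of Ptger2 (0.727) and Ptger4 (0.713), with overlapping libraries, and in SMNV its 0.663 TPM was below their 1.30 and 1.24 in every library. That place also rests on the deposited length of 9699 bases, by which its reads were divided. Ptgs2 and Ptges2 lay side by side in Dox, at 7.66 ± 0.491 and 6.82 ± 1.07 TPM, where their libraries overlapped. In SMNV they were 3.17 ± 0.250 and 7.70 ± 1.61 TPM (SD, n = 3), and every Ptges2 value was above every Ptgs2 value.

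The wider pathway was read from 8 lists with 92 entries, of which 87 had a row. They gave 90 rows, 64 of them tested. Of the tested rows 22 rose, 21 fell and 21 did not pass, so 67.2% were called, beside 60.4% of all tested genes. Since 30.5% of all tested genes were higher and 29.9% lower, both directions within a list do not set its genes apart. Their median log2 fold change was 0.025 and that of all tested genes -0.014.

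Of 3 tested rows of other prostanoid synthesis genes, 1 was higher and 2 were lower. Akr1b1, an aldose reductase whose human form can make prostaglandin F2α, fell from 150.5 ± 1.64 to 105 ± 7.99 CPM (SD, n = 3), a log2 fold change of -0.52 ± 0.07. Cbr1, a carbonyl reductase that can turn prostaglandin E2 into F2α, rose by 0.43 ± 0.09 on the log2 scale in the main row of 3 with that symbol. The counts of that row had decimals in 4 libraries. Ptges3, a co-chaperone also described as a cytosolic prostaglandin E synthase, fell by 0.21 and lost its call without SMNV 1 or SMNV 3 (adjusted p = 0.056 and 0.089, edgeR). The haematopoietic and lipocalin-type prostaglandin D synthase genes Hpgds and Ptgds and the thromboxane synthase gene Tbxas1 did not reach the filter, with a highest value of 0.146 CPM.

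Among 13 tested genes of phospholipases and arachidonate supply, 6 rose, 3 fell and 4 did not pass. Pla2g4b, a further cytosolic phospholipase A2 gene, rose from 5.03 ± 0.624 to 11.2 ± 0.556 CPM (SD, n = 3), although its counts had decimals in all 6 libraries and RefSeq shows overlapping genes. Pla2g6, the calcium-independent phospholipase A2, rose from 13.2 ± 1.09 to 23.9 ± 1.53 CPM, a log2 fold change of 0.85 ± 0.10. The desaturase gene Fads2, which acts early in the synthesis of arachidonic acid, rose by 0.63 ± 0.06. Anxa1, encoding annexin A1, a protein known to restrain phospholipase A2, fell from 1804 ± 104 to 1287 ± 85.5 CPM, by 0.49 on the log2 scale.

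Of 6 tested genes of prostaglandin inactivation and transport, 1 rose, 2 fell and 3 did not pass. Ptgr1, a reductase acting on 15-oxo-prostaglandins and leukotriene B4, had the lowest fold change of this list, with 610, 589 and 600 CPM in Dox and 212, 251 and 226 CPM in SMNV. The groups were far apart, and the log2 fold change was -1.38 ± 0.07 (SE; edgeR adjusted p = 1.1e-09). Its relative Ptgr2 fell by 0.25. Slco3a1, a transporter gene whose human product carries prostaglandins, rose by 0.41 ± 0.13, and lost its call without SMNV 1 (adjusted p = 0.055, edgeR) and on TPM values.

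The other receptors differed among themselves. Ptgfr, encoding the prostaglandin F2α receptor, held 42.7, 37.2 and 39.5 CPM in Dox and 25.7, 24.5 and 23.5 CPM in SMNV. All SMNV libraries were below all Dox libraries, and the log2 fold change was -0.70 ± 0.09 (SE; edgeR adjusted p = 7.4e-06). In TPM, Ptgfr, at 13.9 to 27.9, exceeded Ptger2 and Ptger4 in every library. Ptger1, encoding EP1, rose by 0.32 ± 0.12 (SE, adjusted p = 0.037, edgeR) from 21.8 ± 4.22 CPM, but its counts had decimals in every library, and without Dox 1, its lowest library, the change was 0.17 (adjusted p = 0.16). The call was also lost without Dox 3 (0.061), without SMNV 3 (0.11) and on both TPM scales (0.075 and 0.075). The thromboxane receptor gene Tbxa2r, named after its values were seen, had a log2 fold change of 1.03 ± 0.47 and did not pass (adjusted p = 0.072, edgeR). Ptger3, Ptgir and Ptgdr2, encoding EP3, the prostacyclin receptor and a prostaglandin D2 receptor, were at no more than 0.0504 CPM.

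In the list of receptor signalling genes, 3 of 17 tested rows rose, 6 fell and 8 did not pass. Gnas encodes the stimulatory G protein subunit that EP2 and EP4 use. The main of 2 rows with that symbol rose from 653 ± 50.7 to 923 ± 15.9 CPM (SD, n = 3). The counts of that row had decimals in 4 libraries. Its log2 fold change of 0.50 ranged from 0.22 to 0.55 over the alternatives. Nr4a1, an early-response nuclear receptor gene induced by cyclic AMP in many cells, rose from 1.88 ± 0.422 to 5.07 ± 1.33 CPM. Further genes of the list were named after their values were seen. Nr4a2 and Crem, at -0.33 and -0.31, did not pass (edgeR adjusted p = 0.0734 and 0.0765). Pde4d fell by 0.33 and Pde4a rose by 0.80. A response to cyclic AMP was not tested. The protein kinase A subunit gene Prkacb and the phosphodiesterase gene Pde3b fell by 0.39 and 0.51 on the log2 scale. Prkacb had decimals in the counts of all 6 libraries.

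Of 13 tested regulators of the Ptgs2 gene or its messenger, 7 passed as higher, 4 as lower and 2 did not pass. Of all tested genes 30.5% were higher and 29.9% lower. The transcription factor genes Cebpb, Rela and Jun rose by 1.33 ± 0.31, 0.48 ± 0.09 and 0.47 ± 0.09. Cebpb rested on low values, 0.926, 1.05 and 0.542 CPM in Dox and 1.86, 2.25 and 2.22 CPM in SMNV, which did not overlap. Nfat5, a further transcription factor gene, fell by 0.56. The other called genes, named after their values were seen, were Nfkb1, Zfp36, Zfp36l1 and Atf4, higher, and Zfp36l2, Elavl1 and Ets1, lower. The list mixes regulators of the gene with regulators of its messenger, and the effect of each on Ptgs2 was not tested.

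Among the tetraspanin partners of the Ptgfrn protein and related immunoglobulin proteins, Cd9 and Cd81 fell and Igsf8 and Igsf3 rose. Of 5 tested genes, 2 rose, 2 fell and 1 did not pass. Cd81 went from 35.4, 37.8 and 37.5 CPM in Dox to 16.4, 14.3 and 9.78 CPM in SMNV, a log2 fold change of -1.45 ± 0.14, with decimals in the counts of all 6 libraries. Cd9 fell by 0.56. Igsf8, whose product binds the same tetraspanins, went from 10.7, 13.9 and 10.99 CPM to 35.8, 27.1 and 39.3 CPM, a log2 fold change of 1.52 ± 0.14, and its relative Igsf3 rose by 0.34 ± 0.07.

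**Figure D4:**
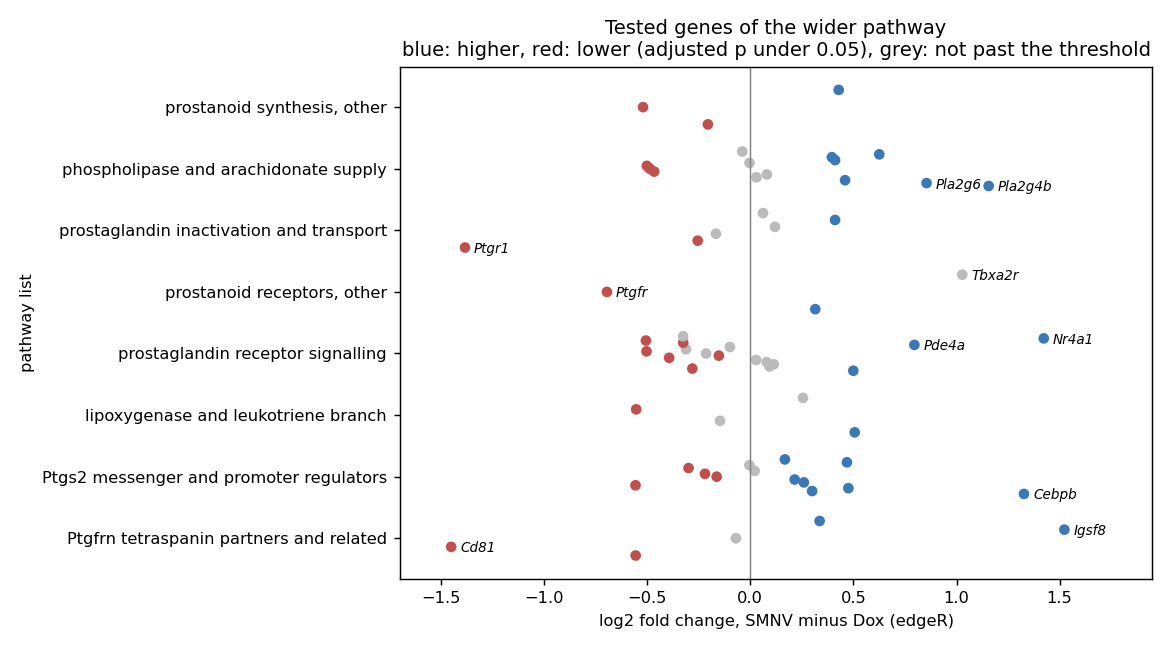
Log2 fold changes, SMNV minus Dox (x axis), of the 64 tested rows of the wider pathway by list (y axis), coloured by call, with vertical offsets within a list for legibility only. Genes with an absolute change above 0.65 are named, and both directions occur in every list.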

How the data were processed

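Poly(A) RNA-seq of 6 libraries was used. Per the submitters' processing notes, the tools were fastp, HISAT2 and HTSeq and the build mRatBN7.2, without roles or versions; the annotation release and strand setting were not stated. The authors deposited estimated counts per gene, not normalized, with decimals in 17.9% to 18.8% of values above 0, and a second table of TPM computed by the authors. Estimated counts were rounded to whole numbers; the design had assumed whole counts, and its test was kept.

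Rows passing filterByExpr (12614) were scaled with TMM and tested with edgeR 4.0.16 in R 4.3.3 (glmQLFit, glmQLFTest, group as the only term, two-sided). The SE was taken as the size of the log2 fold change over the root of its F statistic, and 95% intervals use the fit's degrees of freedom. Alternatives were RLE and upper-quartile scaling, DESeq2 1.42.0, limma 3.58.1 (voom, and limma-trend on log2(TPM + 1) and log2(TPM + 0.1)), no filter, summed rows of a symbol, a replicate block, and each library left out. The fit was tested on simulated data. Shares were compared by exact permutation tests (SciPy 1.17.1).

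No pair of libraries in a group was alike enough to be a duplicate. All 10 members are named, with up to 4 called genes of each pathway list by smallest p. Members and lists were chosen with earlier results of these data known.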

Additional observations from a re-analysis of the deposited data

How the results depend on the processing

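Over 8 member rows and 120 alternative values, 112 kept direction and call. The exceptions were Ptger2 (with voom, on both TPM scales and without Dox 3) and Ptger4 (with voom and without Dox 2), which passed, and Ptgfrn, which had the opposite sign on both TPM scales (-0.011 and -0.011). The number of members called was 4 with voom, and those higher in SMNV numbered 2 with voom, 1 on log2(TPM + 1), 1 on log2(TPM + 0.1) and 0 to 1 with a library left out. The share of Ptger4 differed by -8.61 to 16.5 points with a library left out. The cause of these shifts was not tested. Of 388 values for 26 other named genes, 10 lost the call. The labels do not say whether replicate numbers pair the samples. Correlations of same-numbered deviations were 0.0076, -0.12 and 0.0017, and those of differently numbered libraries -0.13 to 0.14. With so few libraries these values cannot exclude pairing. With a replicate block 7387 genes were called in place of 7614, and 2 members, as without it. Ptger2, Ptger4, Ptgis and Hpgd rest on at most 27 counts in any library.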

Other observations

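In the leukotriene branch of arachidonic acid metabolism, 4 of 11 rows were tested, of which 1 rose, 1 fell and 2 did not pass. Lta4h, encoding leukotriene A4 hydrolase, had the highest CPM of the list, 81.5 ± 7.64 in Dox and 73.6 ± 2.33 in SMNV (SD, n = 3), and did not pass (edgeR adjusted p = 0.10). It and the genes at or near 0 below were named after their values were seen. Alox5ap, encoding the protein that presents arachidonic acid to 5-lipoxygenase, rose from 10.4 ± 1.92 to 14.7 ± 1.62 CPM (SD, n = 3), which is 0.51 ± 0.14 (SE) on the log2 scale with an edgeR adjusted p of 0.0058. The 5-lipoxygenase gene Alox5 itself was at no more than 0.148 CPM in any library. Mgst2, a microsomal glutathione transferase gene whose human product can make leukotriene C4, fell from 47.2 ± 5.47 to 32.2 ± 3.39 CPM. The leukotriene receptor genes Ltb4r2, Cysltr1 and Cysltr2 had no counts.

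Pla2g4a and Ptgs2 are neighbours on chromosome 13 in the RefSeq table, with 0 protein-coding genes between them. The fall of Ptgs2, at -1.16 ± 0.11, stood beside a change of -0.11 ± 0.09 in Pla2g4a, and the difference between the genes was not tested.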
